A study of Mus musculus with 17 samples.

Results

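The genes described here are 8 members of the AP-1 family of transcription factors, Fos, Fosb, Fosl1, Fosl2, Jun, Junb, Jund and Atf3. They were taken by symbol from a table of read counts for 25899 gene symbols, and all 8 had a row and enough reads to be tested. The values count newly made RNA in E14tg2a, a mouse embryonic stem cell line with a 129SV background. Both Erk1 and Erk2 were knocked out in these cells, a FLAG-tagged ERK2 cDNA with the change Q103A stood in for them, and a cRAF-ErT2 cassette was stably expressed, so that 4OHT switches on RAF and, through MEK, ERK2. All groups, controls included, carried these alleles and were kept for 24 h in serum, LIF and 250 nM of PD173074, an FGF receptor inhibitor, before treatment.

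The 6 groups were DMSO, 250 nM 4OHT for 2 h, a MEK inhibitor at 1 μM (labelled PD302509 or PD032509, called MEKi here), MEKi with 4OHT, 2 μM PP1, and PP1 with 4OHT. PP1 was used to inhibit the Q103A form of ERK2. How long the cells stayed in an inhibitor without 4OHT was not clear from the labels. RNA was labelled with 5 mM ethynyl uridine during the last 15 min and captured by click chemistry. The libraries came from clones named a, b and c, with 3 libraries in each group except DMSO, which had 2 (clones b and c). Clones of 1 cell line are the replicates, so the p-values measure the spread between such clones and not between independently made lines.

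AP-1 is a dimer of basic leucine zipper proteins. FOS-type proteins (FOS, FOSB and the products of Fosl1 and Fosl2, FRA1 and FRA2) cannot pair with themselves and need a JUN-type partner, while JUN-type proteins also pair with each other. The dimers bind the palindrome TGANTCA, where N is C or G, and ATF3, a stress-induced relative, also forms dimers that bind the cyclic AMP response element TGACGTCA. Several of these genes are classical immediate early genes: ERK phosphorylates ternary complex factors bound beside SRF at the Fos promoter and stabilises the FOS-type proteins, and FRA1 tends to appear after FOS. In embryonic stem cells ERK signalling is the arm of FGF signalling that moves cells out of the naive state.

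In mm10, Fos is at chr12:85473890-85477273 on the plus strand, Fosb at chr7:19302696-19310051 on the minus strand, Fosl1 at chr19:5447547-5455946 on the plus strand and Fosl2 at chr5:32135801-32157842 on the plus strand. Jun is at chr4:95049034-95052222 and Junb at chr8:84974484-84978718, both on the minus strand, Jund is at chr8:70698949-70700616 on the plus strand, and Atf3 is at chr1:191170296-191218039 on the minus strand. Jun and Jund have no intron, so that their gene span equals their exon length (3189 and 1668 bases). 5 of the genes share bases with another gene on the opposite strand, and the strand setting of the counting is not given in the sources used here. These are Fosl1 with Ccdc85b (2767 bases), Jund with the antisense gene Gm11175 (919 bases), Jun with the antisense gene Junos (689 bases), Junb with Prdx2 (351 bases) and Atf3 with Gm24748 (108 bases). Whether reads of the paired genes in those bases were told apart is therefore not known. Of these neighbours, Ccdc85b and Prdx2 had rows of their own. Ccdc85b stood at a mean of 1.95 CPM (the gene's reads relative to all reads of its library, after scaling between libraries) in DMSO and 1.97 CPM in 4OHT, and Prdx2 at 27.1 CPM and 21.7 CPM. Neither was called between those groups.

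The 250 bases before the RefSeq start are printed for Fos, Fosb, Fosl2 and Junb, which rose with 4OHT both without inhibitor and with PP1, and for Atf3, which rose in neither. Sequences are from RefSeq on GRCm38.p6, the patch release of mm10, 5′ to 3′ in the direction of transcription. Capitals mark every match to one of the motifs searched. In order, the windows are chr12:85473640-85473889 (plus), chr7:19310046-19310295 (minus), chr5:32136222-32136471 (plus), chr8:84978749-84978998 (minus) and chr1:191183334-191183583 (minus). The Fosl2 and Atf3 windows lie inside the longer genes annotated in mm10.
Fos: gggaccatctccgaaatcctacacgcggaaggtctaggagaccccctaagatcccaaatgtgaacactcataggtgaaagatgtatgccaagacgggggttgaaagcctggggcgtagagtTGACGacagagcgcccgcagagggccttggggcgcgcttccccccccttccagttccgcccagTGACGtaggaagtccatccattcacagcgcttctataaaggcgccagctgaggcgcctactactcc
Fosb: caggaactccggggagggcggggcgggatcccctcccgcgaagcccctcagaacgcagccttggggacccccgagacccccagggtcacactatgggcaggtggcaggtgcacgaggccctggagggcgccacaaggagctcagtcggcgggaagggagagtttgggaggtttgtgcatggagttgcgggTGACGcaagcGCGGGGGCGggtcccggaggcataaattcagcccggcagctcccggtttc
Fosl2: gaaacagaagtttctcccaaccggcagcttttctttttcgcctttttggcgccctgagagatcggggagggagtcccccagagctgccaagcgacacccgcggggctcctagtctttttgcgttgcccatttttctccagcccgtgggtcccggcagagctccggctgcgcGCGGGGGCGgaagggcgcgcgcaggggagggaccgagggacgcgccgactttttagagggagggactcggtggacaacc
Junb: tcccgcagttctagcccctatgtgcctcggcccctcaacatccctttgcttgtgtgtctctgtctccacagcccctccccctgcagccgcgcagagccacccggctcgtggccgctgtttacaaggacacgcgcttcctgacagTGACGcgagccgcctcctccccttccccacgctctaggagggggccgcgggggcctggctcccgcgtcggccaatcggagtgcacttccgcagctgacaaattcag
Atf3: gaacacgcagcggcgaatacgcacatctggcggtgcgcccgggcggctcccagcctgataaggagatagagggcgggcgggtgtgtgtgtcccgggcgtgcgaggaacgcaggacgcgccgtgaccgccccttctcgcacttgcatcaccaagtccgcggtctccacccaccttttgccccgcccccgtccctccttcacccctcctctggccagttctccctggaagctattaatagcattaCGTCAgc

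The motifs were searched on both strands in the windows of the 7 members with an entry, which are these 5, Jun and Jund. The Jund window lies well upstream of the annotated start of the gene as given above, and so does not describe the bases next to it. TGACG, which makes up one side of the cyclic AMP response element, was in Fos at 129 and 66 bases before the start, in Fosb at 60 bases, in Junb at 106 bases and, as its reverse complement CGTCA, in Atf3 at 7 bases. The EGR site GCGNGGGCG was in Fosb at 50 bases and in Fosl2 at 79 bases before the start. TGACG was present in 17.8% of the 32851 promoter windows of the table and GCGNGGGCG in 4.70%. TGACG lies within TGACGTCA and was added to the search after the promoters had been seen. No member window held TGANTCA (6.75% of all windows), searched with any base at N and so wider than the AP-1 site above. Nor did any hold the full element TGACGTCA (1.55%), the CArG box bound by SRF (1.47%) or the ETS core CCGGAA (12.03%). Bases farther upstream were not searched, so the absence of a motif covers these windows only and not the whole promoter, at Fos included. These matches describe letters in the windows and nothing about occupancy.

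Library totals lay between 5239690 and 11093390 counts, and 3 counts corresponded to 0.247 to 0.766 CPM. A set of 14 high-count loci took 9.38% of the counts in 4OHT clone a and 42.0% in PP1 clone a. They were chosen by a mean of at least 1000 counts and a share that followed that of Cdk8 across the libraries (threshold 0.95 for Pearson's r). That their shares rose and fell together is thus how they were picked. The 8 embryonic stem cell markers were all detected in every group, with summed levels of 2957 to 3916 CPM. With 4OHT alone 4 of them fell and 1 rose by edgeR, beside 26.3% of all genes called lower and 25.7% higher. Of these falls, 2 were at least 2-fold. The 8 fibroblast markers summed to 1.99 to 8.08 CPM, and Lum was at 0 in DMSO and 4OHT and Dcn at 0 in PP1 with 4OHT. The 6 trophoblast markers summed to 6.91 to 7.69 CPM in DMSO and 18.5 to 23.8 CPM in 4OHT. The 6 primitive endoderm markers summed to 14.4 to 14.6 CPM in DMSO and 7.62 to 11.7 CPM in 4OHT. In each list 5 genes were tested. With 4OHT alone 3 trophoblast markers rose (list median log2 fold change 1.47) and 2 primitive endoderm markers fell (list median 0.04), beside the same shares of all genes. No other gene of either list was called. None of these 12 genes was at 0 in any group, and the part of any of these markers in the results below was not tested. Fewer cells of a type and less RNA per cell cannot be told apart in these libraries. The knocked-out Mapk3 (Erk1) still gave 7.60 to 17.9 CPM, which does not check the knockout, since where the gene was cut is not given in the sources used here.

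With 4OHT alone, 6 of the 8 genes rose against DMSO and none fell, while 25.7% of all 14907 genes tested were called higher and 26.3% lower. The split of calls depends on the scaling, with 49.4% of them higher here and 21.1% with library totals as sole scaling. All 4 FOS-type genes rose, Fosl2 by 79.7-fold, Fos by 17.04-fold, Fosl1 by 15.6-fold and Fosb from a few counts, as did Junb (8.55-fold) and Jun (2.88-fold). Jund and Atf3 were not called. The median log2 fold change of the 8 genes was 3.53, beside -0.02 over all genes. The median over all genes also depends on the scaling, and was -0.32 with library totals as sole scaling. With MEKi none of the 8 was called, and with PP1 5 rose by less than without inhibitor and Atf3 fell. A gene is said to have risen or fallen when the adjusted p of edgeR's quasi-likelihood test, Benjamini-Hochberg over all genes tested, was under 0.05, and the errors of log2 fold changes are approximate standard errors from that test.

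**Figure D1:**
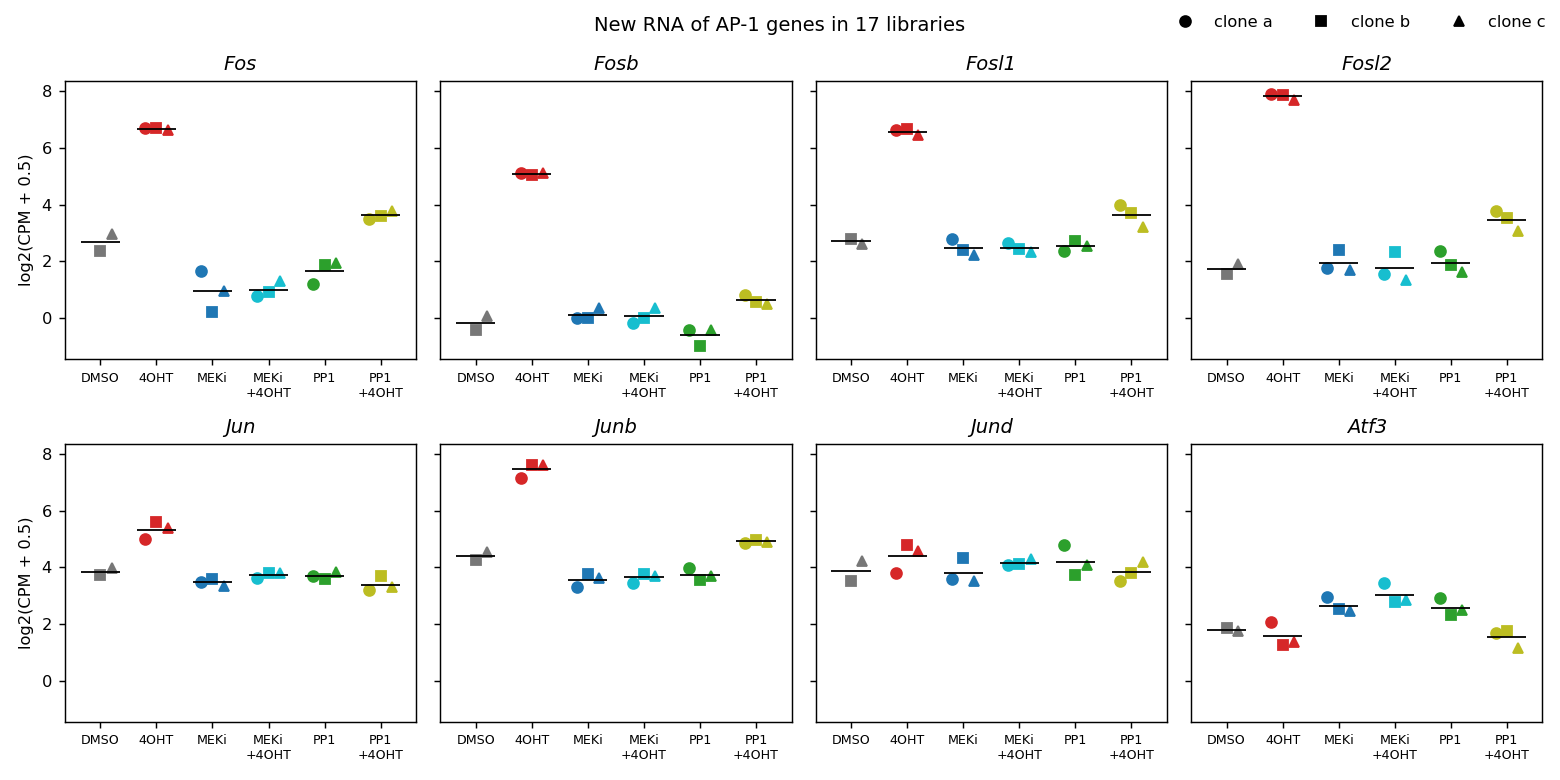
Level of each AP-1 gene in every library, as log2 of CPM plus 0.5, by group, with the marker shape giving the clone and the black line the group's mean of these log values. Fos, Fosb, Fosl1, Fosl2 and Junb stood highest in the 3 libraries of 4OHT and next highest in PP1 with 4OHT, whereas Jund overlapped between all groups.

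FOS, the founding member of the family, was taken first. Fos stood at 4.69 and 7.41 CPM in DMSO clones b and c and at 104, 105 and 98.4 CPM in 4OHT clones a, b and c. The groups were far apart, and the 4OHT clones lay close together. The difference was 4.09 ± 0.20 on the log2 scale, or 17.04-fold (edgeR adjusted p = 9.6e-14). MEKi held Fos at 2.65, 0.654 and 1.46 CPM, and MEKi with 4OHT at 1.23, 1.40 and 1.96 CPM. These ranges overlapped, both lay below DMSO, and 4OHT made a difference of -0.10 ± 0.36 (edgeR adjusted p = 0.9). In PP1 Fos stood at 1.79, 3.19 and 3.31 CPM and in PP1 with 4OHT at 10.8, 11.7 and 13.4 CPM. Every clone of the second group was above every clone of the first, by 4.01-fold (log2 2.00 ± 0.23, edgeR adjusted p = 1.3e-06).

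FOSB is a close relative of FOS that also lacks self-pairing. Fosb was near the lower limit of detection without 4OHT, with 3 and 6 counts (0.247 and 0.556 CPM) in DMSO. It stood at 34.3, 32.6 and 34.0 CPM in 4OHT, a spread that was narrow relative to the level. The ratio of summed counts was 86.1 with an exact 95% interval of 45.1 to 189, which covers counting error only, and the fitted difference was 6.37 ± 0.33 (edgeR adjusted p = 1.6e-13). That value was 7.05 without DMSO clone c, when the lone DMSO library is assumed to vary like the other groups. Fosb stood at 0.505, 0.491 and 0.776 CPM in MEKi and 0.380, 0.499 and 0.784 CPM in MEKi with 4OHT, ranges that overlapped. PP1 clones a, b and c gave 1, 0 and 2 counts, and PP1 with 4OHT gave 1.25, 0.972 and 0.927 CPM. Their ratio of summed counts, 30 against 3, was 7.82 with an interval of 2.43 to 40.1 (log2 2.84 ± 0.60, edgeR adjusted p = 9.9e-04). It rested on so few reads that the log2 difference was 2.03 without PP1 clone b and 3.64 without PP1 clone c.

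FRA1, the product of Fosl1, is known for its part in migratory and invasive cells downstream of RAS. Fosl1 stood at 6.50 and 5.65 CPM in DMSO and at 99.3, 100.5 and 86.5 CPM in 4OHT, a difference of 3.97 ± 0.19 or 15.6-fold (edgeR adjusted p = 4.1e-14). The groups did not overlap. It stood at 6.44, 4.74 and 4.17 CPM in MEKi and 5.70, 4.89 and 4.51 CPM in MEKi with 4OHT, which did overlap. In PP1 it stood at 4.59, 6.07 and 5.27 CPM and in PP1 with 4OHT at 15.5, 12.5 and 8.74 CPM. All 3 treated clones were above the PP1 clones, with clone c lowest, and the difference was 1.18 ± 0.20 or 2.27-fold (edgeR adjusted p = 8.1e-05).

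FRA2, the product of Fosl2, is the other member of the FRA pair. Fosl2 went from 2.47 and 3.24 CPM in DMSO to 241, 233 and 207 CPM in 4OHT, a 79.7-fold difference (log2 6.32 ± 0.24, edgeR adjusted p = 6.3e-14). Of the genes counted well in both groups it had the largest rise in the family. Its 2.90, 4.74 and 2.72 CPM in MEKi overlapped the 2.47, 4.59 and 2.06 CPM of MEKi with 4OHT, and clone b was the highest in both. PP1 gave 4.59, 3.19 and 2.57 CPM and PP1 with 4OHT 13.1, 11.2 and 7.81 CPM. These groups did not overlap and differed by 3.35-fold (log2 1.75 ± 0.26, edgeR adjusted p = 6.4e-05).

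JUN is the JUN-type partner best known for activation by JNK. Jun stood at 12.8 and 15.1 CPM in DMSO and at 31.4, 47.9 and 41.7 CPM in 4OHT, with clone a lowest. The rise of 2.88-fold was the smallest of the 6 (log2 1.53 ± 0.17, edgeR adjusted p = 8.9e-08). MEKi gave 10.6, 11.6 and 9.70 CPM and MEKi with 4OHT 11.9, 13.5 and 13.5 CPM, which did not overlap but differed by only 0.29 ± 0.17 and were not called (edgeR adjusted p = 0.27). PP1 gave 12.5, 11.5 and 13.8 CPM and PP1 with 4OHT 8.62, 12.4 and 9.40 CPM. These overlapped through clone b of PP1 with 4OHT, at -0.31 ± 0.18 (edgeR adjusted p = 0.19). Without that library the difference was -0.53 and was called (adjusted p = 0.047).

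JUNB pairs with FOS-type proteins and can oppose JUN at some targets. Junb stood at 18.8 and 22.6 CPM in DMSO and at 144, 195 and 193 CPM in 4OHT, a difference of 3.10 ± 0.15 or 8.55-fold (edgeR adjusted p = 3.9e-14). Clone a was lowest in 4OHT, as it was for Jun. MEKi gave 9.46, 13.1 and 11.8 CPM and MEKi with 4OHT 10.5, 13.2 and 12.4 CPM, ranges that overlapped below DMSO. PP1 gave 15.3, 11.1 and 12.6 CPM and PP1 with 4OHT 28.7, 31.0 and 29.5 CPM. The second group stood above every library of DMSO, MEKi, MEKi with 4OHT and PP1, and its difference from PP1 was 1.24 ± 0.15 or 2.35-fold (edgeR adjusted p = 1.6e-06).

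JUND is usually made at a steady level and is not a typical immediate early gene. Jund stood at 10.9 and 18.1 CPM in DMSO, 13.4, 27.4 and 23.3 CPM in 4OHT, 11.6, 19.6 and 10.96 CPM in MEKi and 16.6, 16.97 and 19.0 CPM in MEKi with 4OHT. PP1 gave 27.3, 12.7 and 16.4 CPM and PP1 with 4OHT 11.1, 13.4 and 17.6 CPM. The groups overlapped in every pair compared, and none of the 12 comparisons was called for Jund. The difference between 4OHT and DMSO was 0.54 ± 0.36 (edgeR adjusted p = 0.23), an error larger than that of the 6 genes that rose. In 5 of the 6 groups the library with the highest Jund was also the library of that group in which the high-count loci took the largest part of the reads, and the part of that share in the Jund values was not tested. PP1 with 4OHT against 4OHT was called without 4OHT clone a (log2 -0.88, adjusted p = 0.049), against -0.59 with it (adjusted p = 0.17).

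ATF3 differs from the other members in that its homodimer represses transcription. Atf3 stood at 3.13 and 2.87 CPM in DMSO and at 3.67, 1.90 and 2.11 CPM in 4OHT. These overlapped, at -0.18 ± 0.33 (edgeR adjusted p = 0.68). Its highest values were those of MEKi with 4OHT, 10.4, 6.39 and 6.76 CPM, and those of MEKi were 7.19, 5.23 and 5.05 CPM. PP1 gave 7.15, 4.48 and 5.15 CPM and PP1 with 4OHT 2.68, 2.91 and 1.72 CPM. Every library with an inhibitor alone was thus above both DMSO libraries, but neither inhibitor alone was called against DMSO. Every library of PP1 with 4OHT was below those of PP1. The fall with 4OHT under PP1 was 2.15-fold (log2 -1.11 ± 0.30, edgeR adjusted p = 6.4e-03), the reverse of the direction of the FOS-type genes in the same libraries.

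Whether the 4OHT effect itself differed with an inhibitor was tested as an interaction. With MEKi the effect was smaller than without inhibitor for the same 6 genes that had risen, beside 19.3% of all genes called lower. The differences ran from -6.52 for Fosb and -6.45 for Fosl2 through -4.19 for Fos, -3.98 for Fosl1 and -3.02 for Junb to -1.23 for Jun (edgeR adjusted p between 1.1e-10 and 2.5e-04). Atf3 was not called in the MEKi interaction (0.61 ± 0.42, edgeR adjusted p = 0.26), but was with the clone as a block (0.85, adjusted p = 0.047). With PP1 it was also smaller for those 6, beside 11.4% of all genes. These differences were -4.57 for Fosl2, -3.53 for Fosb, -2.78 for Fosl1, -2.09 for Fos, -1.86 for Junb and -1.83 for Jun (edgeR adjusted p between 1.0e-07 and 0.023). The 2 interactions share the DMSO and 4OHT libraries. The value for Fosb with PP1 was not called without DMSO clone b (adjusted p = 0.062), PP1 clone a (0.09) or PP1 clone c (-2.73, 0.34), nor when PP1 a, MEKi b and 4OHT b, in which the high-count loci took the largest part of the reads, were dropped together (0.087).

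**Figure D2:**
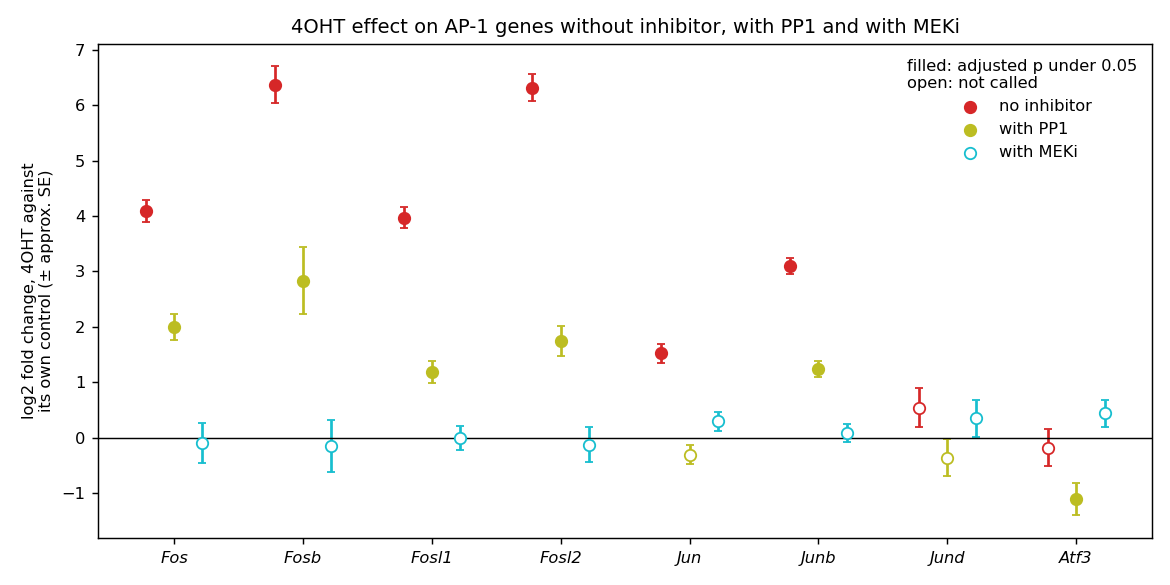
Log2 fold change of 4OHT against its own control for each gene without inhibitor, with PP1 and with MEKi, with approximate standard errors as bars and filled points for adjusted p under 0.05. The 5 genes Fos, Fosb, Fosl1, Fosl2 and Junb lie in the order no inhibitor, PP1, MEKi from the highest to the lowest, and Jun, Jund and Atf3 do not.

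PP1 and MEKi were compared directly. The 4OHT effect was larger with PP1 than with MEKi for 5 genes, beside 7.41% of all genes called higher. For Atf3 the signed effect was lower, beside 4.86% called lower, at -1.11 with PP1 and 0.44 (not called) with MEKi. The differences were 2.98 for Fosb, 2.10 for Fos, 1.87 for Fosl2, 1.20 for Fosl1, 1.16 for Junb and -1.54 for Atf3 (edgeR adjusted p between 7.4e-04 and 0.014). The value for Fosb draws on few counts in the controls. Fosb in PP1 against MEKi stood at -2.06 ± 0.69 without 4OHT (3 against 15 counts) and at 0.92 ± 0.41 with 4OHT, neither of them called. Jun, at -0.60 ± 0.24 (adjusted p = 0.12), and Jund, at -0.71 ± 0.47 (adjusted p = 0.41), were not called. Leaving out MEKi a together with MEKi with 4OHT b left Fos at 1.53 (adjusted p = 0.061) and Fosl1 at 0.96 (adjusted p = 0.069), so that neither was called. Scaling by library totals alone ended the calls of Fosb and Fosl1, at adjusted p of 0.053 and 0.09, that of Fosb also without MEKi c (0.062) or PP1 b (0.1), and Jun was called without PP1 with 4OHT b (-0.81, 0.043).

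Within cells given 4OHT, MEKi lowered 6 of the 8 genes (the FOS-type genes, Jun and Junb), beside 28.4% of all genes called lower, and PP1 lowered the same 6, beside 20.5%. Fos was lower by 6.05 ± 0.21 with MEKi and by 3.11 ± 0.16 with PP1, on the log2 scale. Jun was lower by 1.63 ± 0.15 with MEKi and by 1.97 ± 0.16 with PP1, the only one of the 6 for which the PP1 value was the larger, and the direct difference between those groups was not called (-0.35 ± 0.17, edgeR adjusted p = 0.13; called at 0.038 without PP1 with 4OHT b). Atf3 rose 2.96-fold with MEKi (log2 1.57 ± 0.28, edgeR adjusted p = 3.9e-05), where 28.4% of all genes were called higher, and was not called with PP1 (-0.09 ± 0.32).

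Both 4OHT groups with an inhibitor were then set against each other. Fos was 7.71-fold higher with PP1 than with MEKi (log2 2.95 ± 0.25, edgeR adjusted p = 2.2e-09), and Fosl2 (1.84 ± 0.25), Fosl1 (1.30 ± 0.19) and Junb (1.30 ± 0.14) were also higher, 4 genes in all beside 15.2% of all genes. Atf3 was 3.16-fold lower (edgeR adjusted p = 5.9e-05), 1 gene beside 13.0%. Fosb was not called, at 0.92 ± 0.41 (edgeR adjusted p = 0.095), with 30 counts against 17.

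The inhibitors alone were compared with DMSO, which had 2 libraries. MEKi lowered 2 of the 8 genes, beside 0.449% of all genes called lower, and raised none, beside 0.0805%. Fos was 3.64-fold lower (log2 -1.86 ± 0.30, edgeR adjusted p = 1.6e-03) and Junb 1.81-fold lower (log2 -0.86 ± 0.16, edgeR adjusted p = 0.01), and for both every MEKi library was below both DMSO libraries. These calls were less firm than those with 4OHT. The Fos call was lost without DMSO clone c (-1.48, adjusted p = 0.14) and in a fit of those groups alone (0.13). That of Junb was lost without DMSO clone c (0.5), MEKi clone a (0.091) or MEKi clone c (0.062), in a fit of those groups alone (0.11) and with limma-voom (0.068). Jun (-0.40 ± 0.19, adjusted p = 0.42) and Atf3 (0.95 ± 0.31, adjusted p = 0.2) did not overlap with DMSO either and were not called. With 2 DMSO libraries a lack of overlap is weak evidence, and its share over all genes is not given here.

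PP1 alone changed 0 of the 8 by edgeR, beside 0.241% of all genes called in either direction. At an unadjusted p under 0.05 there were 3, Fos (-1.02 ± 0.27, adjusted p = 0.13), Junb (-0.71 ± 0.16, adjusted p = 0.08) and Atf3 (0.84 ± 0.32, adjusted p = 0.31), while DESeq2 called 2 (Fos and Junb) and limma-voom 0. With the clone as a block, Junb was called (-0.66, edgeR adjusted p = 0.047). PP1 against MEKi without 4OHT also gave 0 of 8 by edgeR, DESeq2 and limma-voom, beside 0.0738% of all genes by edgeR, with Fos and Fosb under an unadjusted p of 0.05. The count of 0 for 4OHT with MEKi, where 14.7% of all genes were called, was likewise 0 at an unadjusted p under 0.05 and with DESeq2 and limma-voom. With PP1, the 5 genes that rose with 4OHT stood beside 18.4% of all genes called higher and the fall of Atf3 beside 12.8% called lower.

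Levels of different genes were compared per kilobase of merged exons. In DMSO Junb (9.003 CPM per kb) and Jund (8.67) led with overlapping ranges, followed by Jun (4.37), Fosl1 (2.99) and Fos (2.57), the last pair overlapping, then Atf3 (1.39), Fosl2 (0.295) and Fosb (0.0643). In 4OHT Junb (77.1) led, ahead of Fosl1 (46.9) and Fos (43.6), which overlapped, Fosl2 (23.5), Jund (12.8) and Jun (12.6), which overlapped, Fosb (5.38) and Atf3 (1.19). Fosl2, first in CPM in 4OHT, thus came after Junb, Fosl1 and Fos per length. By gene span, introns included, Fosl1 in 4OHT (11.4) came after Junb (41.9), Fos (30.3), Jund (12.8) and Jun (12.6). In MEKi, MEKi with 4OHT and PP1 the highest gene was Jund by either length, at 8.43, 10.5 and 11.3 CPM per kb. PP1 with 4OHT had Junb first again (12.9), then Jund (8.42), Fosl1 (6.03) and Fos (5.08). By gene span Jund was first there (8.42, Junb 7.03, Fos 3.53) and in DMSO (8.67, Junb 4.89), so that the lead of Junb in those groups rests on the length used.

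The summed level per kilobase of the FOS-type genes was set against that of FOS-type and JUN-type genes together. FOS-type RNA made up 22.7% and 20.0% of it in DMSO and 60.6%, 51.5% and 50.0% in 4OHT. The 4OHT libraries were all well above the others. The mean was 54.0% ± 5.75 (SD, n = 3) in 4OHT, 33.6% ± 4.72 (SD, n = 3) in PP1 with 4OHT and 21.4% ± 1.88 (SD, n = 2) in DMSO. It was 18.3% ± 5.77 in MEKi, 15.2% ± 1.39 in MEKi with 4OHT and 17.3% ± 5.47 in PP1 (SD, n = 3 each). Which parts of a gene were counted is not given in the sources used here, and with gene span in place of exon length the shares were 46.0% in 4OHT, 23.3% in PP1 with 4OHT and 13.1% in DMSO. The share is built from the same values as the tests above and was given no test.

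**Figure D3:**
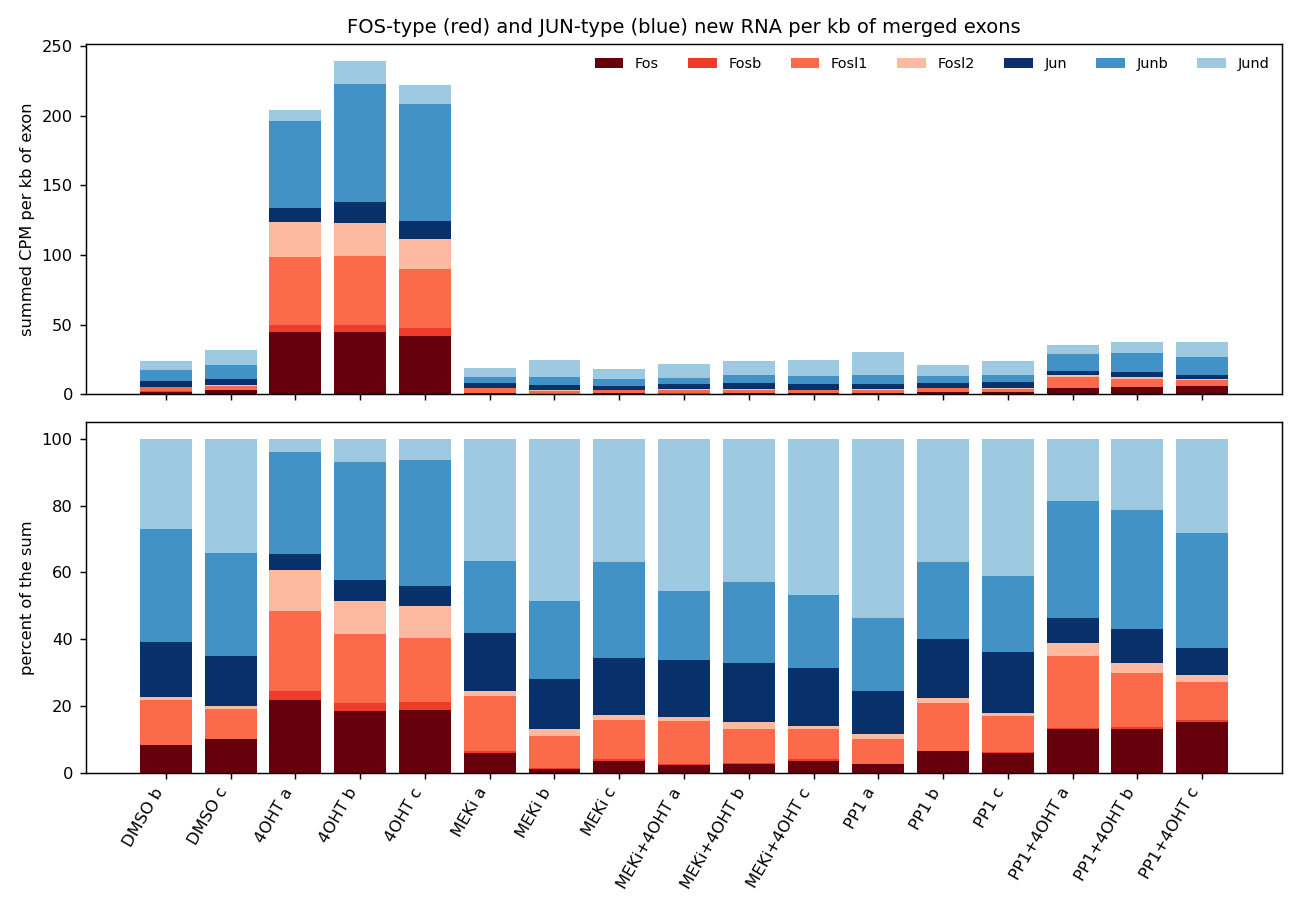
Level of the 4 FOS-type genes (reds) and 3 JUN-type genes (blues) in every library, as CPM per kilobase of merged exons summed over genes (top) and as percent of that sum (bottom). The FOS-type share was 50.0% to 60.6% in the 4OHT libraries and 29.3% to 38.7% in PP1 with 4OHT.

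Other genes of the AP-1 network were looked at as lists. Their counts stand beside the shares of all genes called. These were 25.7% higher and 26.3% lower with 4OHT alone, and 18.4% and 12.8% for 4OHT under PP1. For 4OHT under MEKi the share was 14.7% in either direction. Of 6 further leucine zipper partners, all tested, 1 rose with 4OHT alone and 2 fell: Atf2 by 0.75 ± 0.12 upward, Batf2 by -1.62 ± 0.42 and Jdp2, a repressor that pairs with JUN, by -1.45 ± 0.19 on the log2 scale. Their median was 0.03. With PP1, Batf2 (-1.32) and Jdp2 (-0.63) fell as well, and with MEKi none of the 6 was called. Of the MAF factors, relatives that pair with one another and with NRF2, 5 of 7 had enough reads, and 4 rose with a list median of 1.48, among them Maff (2.58 ± 0.15), Mafk (1.48 ± 0.18) and Mafg (0.56 ± 0.10). The small MAF genes Maff (1.502), Mafk (0.77) and Mafg (0.25) also rose with 4OHT under PP1, and none of the 5 was called under MEKi.

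Of 14 other ATF, CREB and C/EBP genes, 8 rose with 4OHT alone and 2 fell, beside 25.7% and 26.3% of all genes. The list median was 0.29. The largest rises were in Ddit3, the stress gene CHOP (3.02 ± 0.22), Cebpb (2.38 ± 0.69), Creb5 (2.30 ± 0.45) and Atf5 (1.40 ± 0.21), and Creb3l2 (-2.04 ± 0.17) and Creb1 (-0.27 ± 0.09) fell. Under PP1 3 rose, among them Ddit3 (0.75), and 2 fell, and under MEKi none was called. Of 15 genes for kinases and ternary complex factors upstream of AP-1, 14 were tested. With 4OHT alone 5 of them rose and 4 fell, beside the same shares of all genes, and the median was -0.07. Rps6ka3, which encodes RSK2, rose (1.27 ± 0.11), as did Elk4 (0.75 ± 0.10) and Srf (0.58 ± 0.21), while Rps6ka4 (-1.18 ± 0.28), Rps6ka2 (-1.18 ± 0.09) and Elk3 (-0.84 ± 0.16) fell. Elk3 (-0.70), Rps6ka2 (-0.32) and Rps6ka1 (0.40 higher) were the genes of these lists called for 4OHT under MEKi.

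Cd44, a textbook AP-1 target gene, belongs to the high-count loci and ranged from 2670 to 11916 CPM within 4OHT. There were 18 such target genes. In 4OHT, summed counts were 0 for Mmp10, Mmp13 and Timp1, 2 for Mmp3, 5 for Il6, 8 for Plau and 18 for Mmp9. Only 11 of the 18 had enough reads, Cd44 included. With 4OHT alone 5 rose, among them Plaur, the urokinase receptor gene (4.66 ± 0.18), Vim, a mesenchymal filament gene (2.93 ± 0.21), Hmox1 (2.58 ± 0.12) and Dusp1 (2.37 ± 0.18, named after its value was seen), and Ccnd1 (-1.69 ± 0.17) and Spp1 (-0.62 ± 0.22) fell. With PP1 Plaur (2.43 ± 0.15), Hmox1 (0.77 ± 0.11) and Dusp1 (0.77 ± 0.17) rose, and with MEKi none was called. These lists were set with earlier results of these data known, and the shares called beside them are those given above for all genes (52.0% in either direction with 4OHT alone). Whether AP-1 proteins bound any of these genes was not measured.

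**Figure D4:**
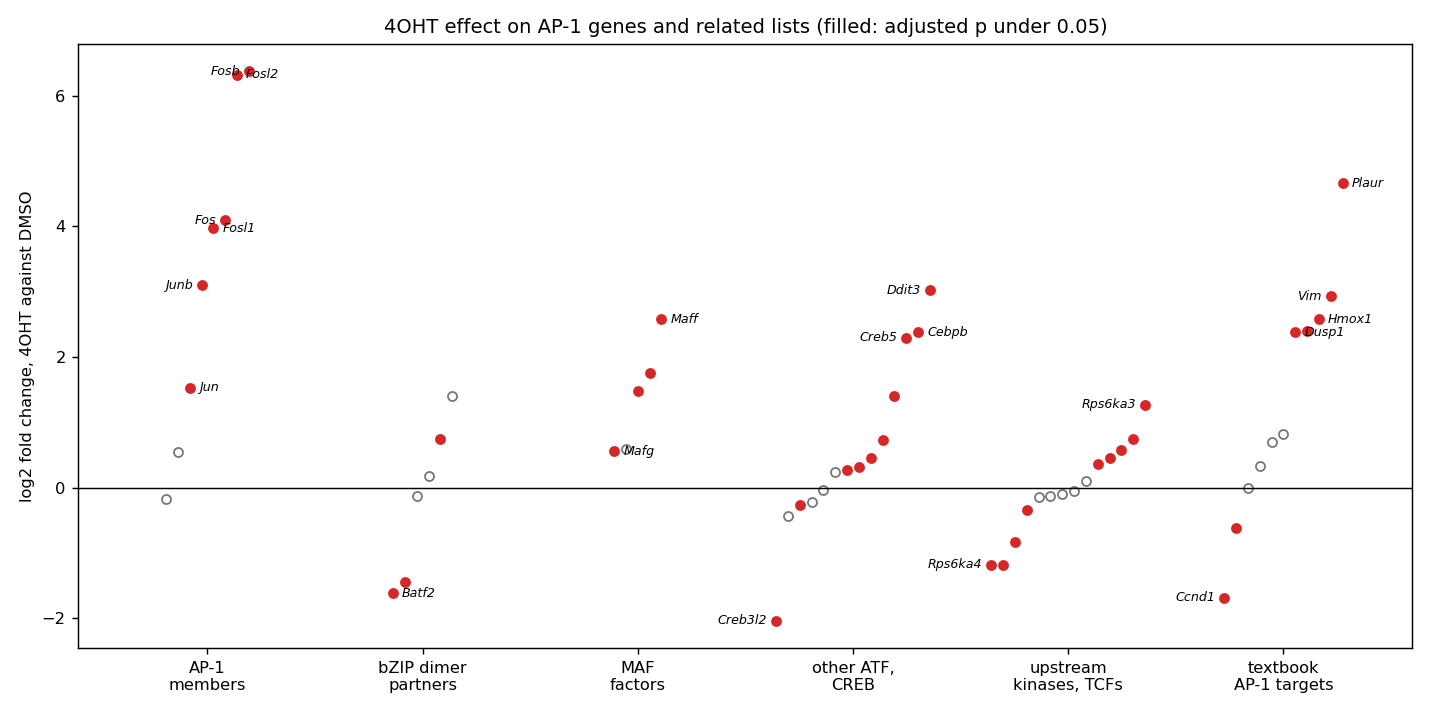
Log2 fold change of 4OHT against DMSO for every tested gene of the AP-1 family and of 5 related lists, with filled points for adjusted p under 0.05. Fosb and Fosl2 stand highest at 6.37 and 6.32, Plaur is the highest gene outside the family at 4.66, and each list other than the MAF factors and the family itself holds called genes on both sides of 0.

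The genes most like each member were found by Pearson's r of log2 CPM across the 17 libraries among 12269 better expressed genes. These r values include the differences between groups. For the members that rose with 4OHT alone, the largest of these differences set the 4OHT libraries against the rest. What the r values rest on was not tested, and they are a description. Fosl1 was closest to Smim3, Foxo1 and Itgb1 (0.99 each) and Fosl2 to Anxa7, Itgb1 and Hmox1 (0.99 each). Junb was closest to Atg12, Hnrnph1 and BC005537 (0.99 each), Fosb to Med13, Yif1b and Vapa (0.98 each) and Fos to Fam72a (0.98), Dbf4 and Ccnl1 (0.97 each). Jun was closest to Nfyb (0.96), Tshz1 (0.95) and Sertad2 (0.94). Jund and Atf3 had other neighbours, Ptms (0.94), Mlf2 (0.91) and Coro1b (0.90) for Jund and Il34 (0.93), Ano1 (0.92) and Megf11 (0.91) for Atf3.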

How the data were processed

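Newly made RNA was sequenced from 17 libraries in 6 groups. The deposited table holds raw read counts per gene symbol; the submitters' processing notes name STAR, featureCounts and the mm10 build, with versions, annotation, strand setting and counted feature not given in the sources used here. No sample column was left unused. The test was edgeR's (4.0.16, under R 4.3.3) quasi-likelihood F test with robust moderation, in a model with a term for each group that took in every library and had 11 residual degrees of freedom, after TMM scaling and a low-count filter (filterByExpr). This gave 12 comparisons, 3 of them interactions, with Benjamini-Hochberg adjustment over 14907 genes and calls at an adjusted p under 0.05. CPM are scaled by TMM, and log2 CPM used a prior count of 2. The approximate standard error of a log2 fold change is its size divided by the square root of the F statistic. Exon lengths and positions came from GENCODE M21, and 25595 of 25899 symbols matched.

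The groups were read from the labels. All 8 members are named, and from each related list up to 4 called genes per direction by size of change. Some genes of these lists are counted but not reported by name here. Members and lists were chosen with earlier results of these data known. The clone letter in the labels pairs libraries across groups. Deviations of the same clone in different groups had a mean correlation of 0.0859 (40 pairs, 16 above 0.1), against -0.0425 for different clones (80 pairs, 8 above 0.1), and clone as a block was an alternative. Other alternatives were DESeq2 1.42.0, limma-voom (limma 3.58.1), other scalings and filters, fits of the groups compared alone, and libraries or loci left out. The test was tried on simulated data. Intervals on counts cover counting error only.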

Additional observations from a re-analysis of the deposited data

Results flagged for a closer look

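A difference between inhibitor settings in the 4OHT effect, tested as an interaction, marks the following values for a second look. Between MEKi and no inhibitor, the log2 differences were -4.19 for Fos (edgeR adjusted p = 7.0e-08), -6.52 for Fosb (4.6e-08), -3.98 for Fosl1 (1.7e-10), -6.45 for Fosl2 (5.9e-10), -1.23 for Jun (2.5e-04) and -3.02 for Junb (1.1e-10). Between PP1 and no inhibitor, they were -2.09 for Fos (edgeR adjusted p = 5.3e-05), -3.53 for Fosb (0.023), -2.78 for Fosl1 (1.0e-07), -4.57 for Fosl2 (1.4e-07), -1.83 for Jun (5.9e-06) and -1.86 for Junb (5.0e-07). Between PP1 and MEKi, they were 2.10 for Fos (edgeR adjusted p = 2.2e-03), 2.98 for Fosb (0.014), 1.20 for Fosl1 (7.8e-03), 1.87 for Fosl2 (4.9e-03), 1.16 for Junb (7.4e-04) and -1.54 for Atf3 (9.3e-03). Fosb rests on 9 counts in DMSO and 3 in PP1.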

How the results depend on the processing

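Over 1777 recomputed member values under the alternatives, 1747 kept their side of the threshold, 12 passed it newly and 18 lost it. The sign changed in 49, of which 0 were called either as reported or under the alternative. The call changes of the interactions and of the 4OHT comparisons are given in the report, except that Jun in PP1 with 4OHT against MEKi with 4OHT was called at -0.47 (adjusted p = 0.04) with library totals after the high-count loci were left out. Beside those changes of single genes, the number of the 8 genes called moved by over 1.5 times for each inhibitor alone. For MEKi against DMSO it was 2, and became 1 with limma-voom, 1 without MEKi a and MEKi with 4OHT b (a pair set apart as high in background from earlier results of these data, with no background value computed here), 0 in a fit of those groups alone and 0 to 2 with 1 library left out. For PP1 against DMSO it was 0, and became 1 with library totals as the only scaling, 1 without a filter, 2 with DESeq2, 1 with clone as a replicate block and 1 without the 3 libraries with the largest share in the high-count loci (PP1 a, MEKi b and 4OHT b, chosen after seeing the data), Junb in each case and Fos also with DESeq2. The same block called Atf3 in the MEKi interaction (0.85, adjusted p = 0.047, against 0.61 and 0.26) and changed no other call of a member. The cause of these changes was not tested.

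Library totals as the only scaling moved the median of all genes by -0.29 for 4OHT against DMSO, 0.17 for MEKi with 4OHT against MEKi and 0.12 for PP1 with 4OHT against PP1, by 0.35 and 0.22 for MEKi and PP1 within 4OHT, by -0.12 for PP1 with 4OHT against MEKi with 4OHT, by -0.11 and -0.19 for MEKi and PP1 against DMSO, and by 0.46 and 0.41 for the MEKi and PP1 interactions. In that order, the share of called genes that were higher went from 49.4% to 21.1%, 52.1% to 82.9%, 59.0% to 76.6%, 50.0% to 80.0%, 51.1% to 79.8%, 53.9% to 30.7%, 15.2% to 5.00%, 33.3% to 57.1%, 52.3% to 86.5% and 57.0% to 89.3%. With the high-count loci also left out, it went to 42.5% for PP1 with 4OHT against PP1 and from 60.4% to 36.6% for PP1 minus MEKi. No called member changed direction under these scalings. Counts of called genes fell by over 1.5 times with library totals from 2188 to 1130 for MEKi with 4OHT against MEKi, from 4661 to 2668 for PP1 with 4OHT against PP1, from 4199 to 2153 for PP1 with 4OHT against MEKi with 4OHT and from 1829 to 514 for PP1 minus MEKi. The first was also 1051 without MEKi a and MEKi with 4OHT b, 1437 when MEKi with 4OHT c was dropped and 1380 when MEKi a was. Over the alternatives the count was 19 to 127 for MEKi against DMSO (79 as reported), 3 to 88 for PP1 against DMSO (36) and 3 to 20 for PP1 against MEKi (11). Depth limits Fosb without 4OHT, which had 9 counts in DMSO and 3 in PP1.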
